A study of Mus musculus with 8 samples.

Results

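Small intestinal crypts were compared with small intestinal villi within the COX-deleted mice, using 2 crypt and 2 villus bulk RNA-seq libraries, 4 of the 8 samples of the study. The study deleted *Ptgs1* and *Ptgs2*, which encode COX1 and COX2, in mesenchymal cells that express Gli1, and profiled isolated crypts and villi of these Gli1-PtgscKO mice and of Ctrl mice in 2 replicates each. The mice were on a C57BL/6 background and received tamoxifen for 5 days at a dose of 100 mg/kg to switch on the Cre, with tissue taken 1 month later. The paper's figure legend gives Gli1-PtgscKO mice as Gli1-CreER with both genes floxed and Ctrl mice as floxed without Cre, whereas the sample labels give the Ctrl mice as Gli1-CreERT2 with a Rosa26-tdTomato reporter. RNA and library kits likewise differ between labels and methods. The Cre is driven by *Gli1*, a mesenchymal gene here, so by design the epithelial cells and the mesenchymal cells without Gli1 keep *Ptgs1* and *Ptgs2*, and recombination in the collected cells was not tested. The age of the mice and any pooling of animals were not given in the sources used here, and nothing there says which crypt and villus libraries came from the same mouse. The p-values below therefore measure only the spread between these libraries.

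The lining of the small intestine is renewed from the crypt base. Stem cells there divide under Wnt and Notch signals, Paneth cells next to them secrete lysozyme and defensins, and daughter cells divide further before they stop and move onto the villus. Absorptive enterocytes then build the brush border, take up sugars, amino acids and fat, and are shed at the tip, while goblet, enteroendocrine and tuft cells are scattered along both compartments. COX enzymes of the underlying mesenchyme make the precursor of prostaglandin E2 (PGE2), which acts on the epithelium mainly through the receptor EP4, the product of *Ptger4*.

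The 2 tissues came in 2 tables that the authors normalized separately, with 11554 genes listed for crypts and 12701 for villi, and the comparison covers the 11227 genes in both. The recovered reads were scaled to reads per 1e+06 over those genes (CPM), which cancels the authors' size factors. The crypt libraries held 19511116 and 16819687 reads on shared genes and the villus libraries 15693802 and 13425206. Anything handled per tissue, from isolation to library preparation, cannot be told apart from the tissue itself. In such bulk samples fewer cells of a type and less RNA per cell also cannot be told apart.

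The tissue labels were checked against 2 markers. *Olfm4* (ENSMUSG00000022026, chr14:79984081-80023139, + strand, GRCm38), the gene of a glycoprotein made by crypt base stem cells, stood at 3677 and 3289 CPM in the crypts and 255 and 172 CPM in the villi. *Lyz1* (ENSMUSG00000069515, chr10:117287797-117292868, − strand), the Paneth cell lysozyme, stood at 16047 and 11438 CPM in the crypts and 347 and 196 CPM in the villi. Both markers were higher in each crypt library than in each villus library. *Olfm4* was 16.6-fold higher in crypts (log2 difference 4.05, SE 0.35, adjusted p = 0.0011) and *Lyz1* 51.9-fold (5.70, SE 0.43, adjusted p = 0.00057), by limma-trend on log2(CPM + 0.5) with Benjamini-Hochberg adjustment over all 11227 genes. All log2 differences below are crypt minus villus on that scale, with n = 2 libraries for each tissue, and a gene is called at an adjusted p under 0.05 in that test. An exact permutation test of 2 against 2 libraries cannot give a two-sided p under 0.333.

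By this rule 3780 genes (33.7%) were called higher and 850 (7.57%) lower in crypts, 41.2% in all, and the study's threshold (unadjusted p under 0.01 and an absolute log2 difference over 1) took 3015 (26.9%) and 667 (5.94%). Both crypt libraries lay above both villus libraries for 57.7% of all genes and below them for 16.0%. The balance of the calls depends on the scaling. Mitochondrially encoded transcripts took 2.62% and 11.3% of the crypt reads and 19.4% and 26.5% of the villus reads, and the median log2 difference of all genes by CPM was 0.58. With TMM scaling, which centres the bulk of the genes, that median was 0.02, and 1626 genes (14.5%) were called higher and 1628 (14.5%) lower. The share of calls that were higher in crypts was 81.6% by CPM and 49.97% with TMM. Leaving out a villus library lowered the counts to 1612 higher and 383 lower (without replicate 1) and to 1180 and 371 (without replicate 2), and leaving out crypt replicate 1 raised them to 5887 and 1640 and crypt replicate 2 to 5490 and 1802. No gene was called in opposite directions by CPM and TMM, and 1626 higher and 850 lower calls held on both scales. The count with TMM is given below wherever it differed, and a gene or list that lies near 0.58 by CPM lies near the middle of all genes.

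**Figure D1:**
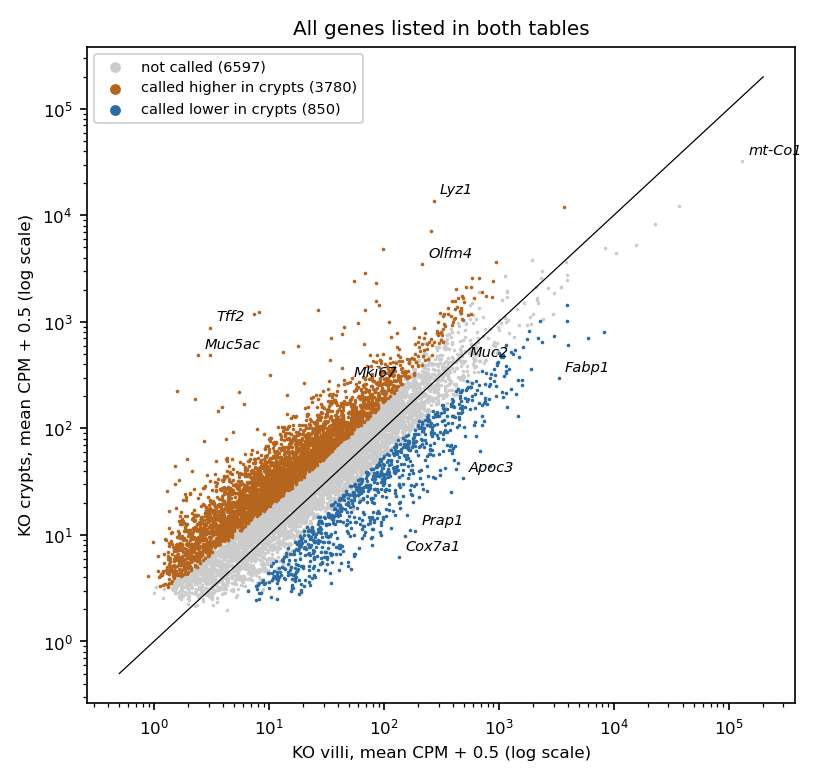
Mean CPM plus 0.5 in the 2 KO crypt libraries (vertical, log scale) against the mean in the 2 KO villus libraries (horizontal, log scale) for the 11227 genes in both tables, coloured by call by CPM, with the line of equal level. The 3780 genes called higher in crypts outnumber the 850 called lower, a balance that became 1626 and 1628 with TMM scaling; Lyz1, Olfm4, Tff2 and Muc5ac lie far above the line and Fabp1, Apoc3, Prap1 and Cox7a1 far below.

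Crypt libraries differed more between replicates than villus libraries. The median absolute log2 difference between the 2 replicates was 0.49 in crypts and 0.20 in villi. The difference between the crypt libraries followed transcript length. In the tenth of genes with the shortest transcripts, crypt replicate 1 was above replicate 2 by a median of 0.86 on the log2 scale, and in the tenth with the longest it was below by a median log2 of -0.88. The crypt minus villus difference itself ran from a median of 0.30 in the shortest group to 0.69 at its peak and 0.61 in the longest. The part of transcript length in single differences was not tested beyond the length correction among the alternatives, and both crypt values are given for each gene.

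**Figure D2:**
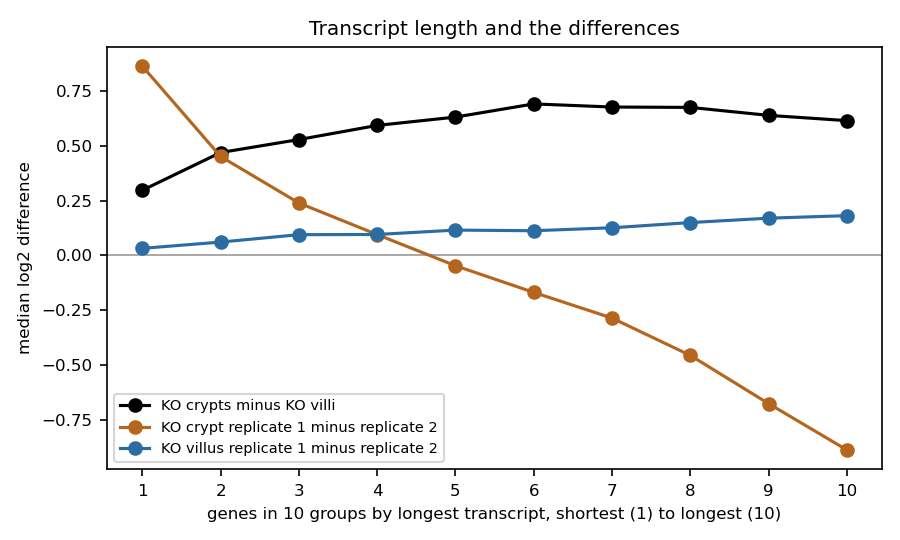
Median log2 difference (vertical) in 10 groups of genes ordered by their longest transcript (horizontal), for KO crypts minus KO villi and for replicate 1 minus replicate 2 within each tissue. The line for the crypt replicates falls from 0.86 to -0.88, while the line for crypts minus villi stays between 0.30 and 0.69.

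Stem cell and Wnt target genes were higher in crypts throughout. All 20 of the 20 listed in both tables were called higher, 19 with TMM, with a median log2 difference of 2.83. *Lgr5*, the R-spondin receptor gene that marks the stem cells, stood at 36.7 and 69.0 CPM in the crypts and 5.35 and 2.38 CPM in the villi. *Ascl2*, a transcription factor of the same cells, stood at 62.5 and 34.6 CPM against 3.76 and 2.23 CPM. The groups did not overlap in either gene, and the log2 differences were 3.63 and 3.78. The smallest difference was that of *Rnf43*, which encodes a ligase that removes Wnt receptors, at 0.99, and this call was lost with TMM. *Prom1* (3.07), *Smoc2* (3.06) and *Sox9* (3.27), all expressed in the crypt base, were called on both scales.

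Paneth cell genes had a list median of 4.30, against 0.58 for all genes. Of 21 genes, 20 were called higher (18 with TMM). *Itln1*, encoding a lectin, stood at 5970 and 3710 CPM in the crypts and 118 and 79.3 CPM in the villi. *Ang4*, an antimicrobial ribonuclease gene, stood at 1380 and 1194 CPM against 28.6 and 23.8 CPM. *Mmp7*, the protease that activates defensins, stood at 216 and 124 CPM against 6.88 and 4.17 CPM. Crypts were above villi without overlap in all 3 genes, with log2 differences of 5.60, 5.59 and 4.81. The defensin gene *Defa24* reached 10824 CPM in crypt replicate 1 and 3570 in replicate 2, against 310 and 206 CPM in the villi, but defensin genes are near-identical copies whose reads the counting could have split, so single members are uncertain. *Reg4*, the member that was not called, stood at 325 and 308 CPM in the crypts and 310 and 140 CPM in the villi, which overlap.

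**Figure D3:**
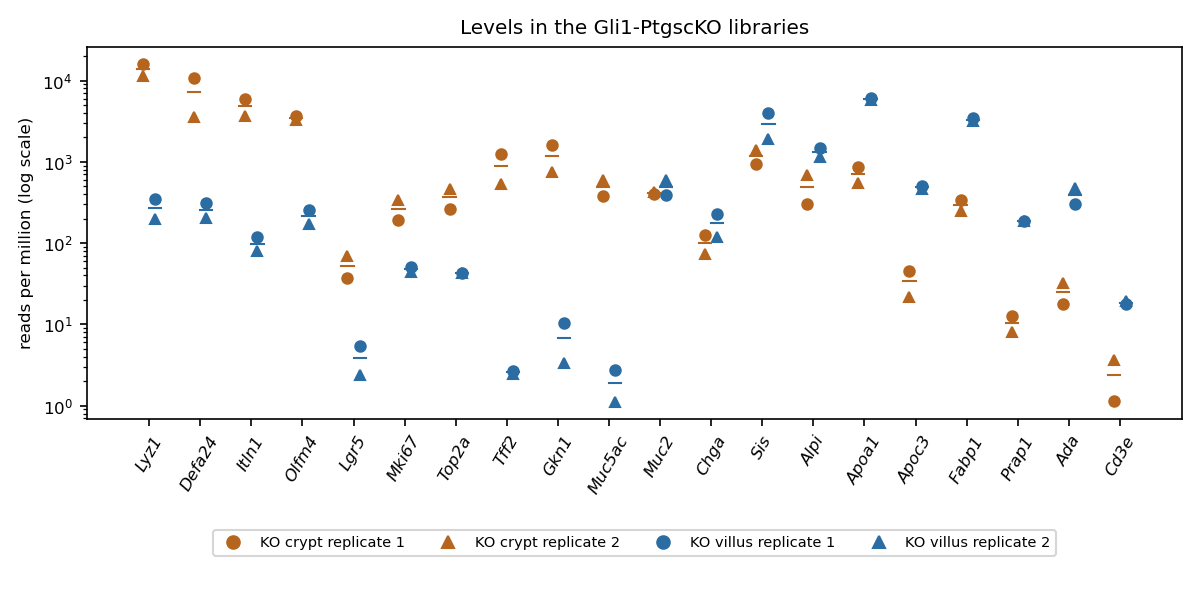
CPM in each of the 4 Gli1-PtgscKO libraries (vertical, log scale) for 20 genes (horizontal), with a short line at each tissue's mean; circles are replicate 1 and triangles replicate 2. Crypt points lie above villus points from Lyz1 to Muc5ac, the points of Muc2 and Chga overlap, and villus points lie above crypt points from Sis to Cd3e.

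Genes of the dividing cell were higher in crypts almost without exception. All 35 mitosis genes were called higher (34 with TMM), with a median of 2.36, and 32 of 34 DNA replication genes (31 with TMM), with a median of 2.29. *Top2a*, the topoisomerase that untangles chromosomes before they part, stood at 266 and 467 CPM in the crypts and 43.5 and 42.8 CPM in the villi, an 8.09-fold difference (log2 3.02, SE 0.33, adjusted p = 0.0013 by limma-trend). *Mki67*, which encodes the proliferation marker Ki-67, stood at 194 and 339 CPM against 50.7 and 44.7 CPM (5.35-fold, log2 2.42). *Ube2c*, the ubiquitin-conjugating enzyme gene of the anaphase complex, stood at 246 and 141 CPM against 22.6 and 22.6 CPM. No crypt library came down to a villus library in these genes. Among replication genes, *Pola1*, encoding the catalytic subunit of DNA polymerase alpha, had the largest difference (3.38) and *Pcna*, encoding the polymerase clamp, stood at 327 and 216 CPM against 91.2 and 92.9 CPM (1.52, not called with TMM). *Pola2* was among the 2 not called.

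Because the mitosis genes moved together, their promoters are shown. Cell cycle genes of late phases are known to carry a CHR element, TTTGAA, and CCAAT boxes. In the RefSeq windows of 300 bases around the start (GRCm38.p6), searched on both strands, TTTGAA was in 17.9% of 32851 promoters and CCAAT in 37.4%, and 6.95% had both. The list matched 29 of 35 mitosis genes with 31 promoters, of which 23 (74.2%) had TTTGAA, 24 (77.4%) CCAAT and 20 (64.5%) both. The DNA replication genes had TTTGAA in 4 of 35 promoters (11.4%). A match is a description of the letters and no evidence of binding. The 250 bases before the start follow for the 3 mitosis genes with both motifs and the largest differences, with TTTGAA and CCAAT in capitals on either strand (TTCAAA and ATTGG on the opposite one). They lie at chr11:99024190-99024439 (- strand), chr2:164769679-164769928 (+ strand) and chr10:69352913-69353162 (- strand). *Cdk1*, the kinase that starts mitosis, was chosen by this motif rule and stood at 120 and 87.0 CPM in the crypts and 13.1 and 13.2 CPM in the villi.
Top2a: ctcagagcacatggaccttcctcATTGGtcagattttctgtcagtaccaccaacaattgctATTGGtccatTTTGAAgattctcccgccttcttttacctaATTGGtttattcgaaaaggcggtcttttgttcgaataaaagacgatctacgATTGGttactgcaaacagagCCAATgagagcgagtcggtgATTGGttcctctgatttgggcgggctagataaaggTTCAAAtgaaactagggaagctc
Ube2c: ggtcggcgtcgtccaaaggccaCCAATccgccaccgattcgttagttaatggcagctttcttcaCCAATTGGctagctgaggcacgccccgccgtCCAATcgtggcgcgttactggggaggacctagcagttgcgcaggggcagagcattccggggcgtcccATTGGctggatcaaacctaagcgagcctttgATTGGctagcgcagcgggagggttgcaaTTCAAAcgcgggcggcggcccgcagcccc
Cdk1: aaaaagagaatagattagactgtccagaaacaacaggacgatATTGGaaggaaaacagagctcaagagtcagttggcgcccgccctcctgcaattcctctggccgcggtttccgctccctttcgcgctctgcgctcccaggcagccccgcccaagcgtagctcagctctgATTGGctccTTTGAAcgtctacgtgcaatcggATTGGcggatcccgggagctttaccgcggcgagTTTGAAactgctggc
In all 3 promoters the TTTGAA letters nearest the start lie within the last 30 bases, at positions -23, -29 and -15 counted from the start.

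The 5 largest differences belonged to genes best known from the stomach lining. The 10 largest in favour of crypts, among genes called without overlap, were *Tff2*, *Muc5ac*, *Pgc*, *Gkn1*, *Gkn2*, *Mucl3*, *Gkn3*, *Lyz1*, *Itln1* and *Ang4*. *Tff2*, a trefoil peptide gene of gastric mucous neck cells, stood at 1236 and 536 CPM in the crypts and 2.68 and 2.46 CPM in the villi (266-fold, log2 8.05, SE 0.40, adjusted p = 0.00012 by limma-trend). *Muc5ac*, the mucin gene of gastric surface cells, stood at 377 and 595 CPM against 2.74 and 1.12 CPM (207-fold, log2 7.69). *Gkn1*, encoding gastrokine 1 of the same cells, stood at 1607 and 751 CPM against 10.4 and 3.35 CPM (log2 7.41).
*Pgc*, encoding the protease precursor progastricsin, stood at 442 and 535 CPM in the crypts and 3.63 and 1.49 CPM in the villi (log2 7.41), and *Gkn2* at 1520 and 969 CPM against 11.3 and 4.17 CPM (log2 7.35). All 5 of the gastric genes the study names that are in both tables were called on both scales. That list was picked by the study from these crypt libraries, so it is not independent evidence of its direction. *Anxa10* and *Gast*, the other 2, were in the crypt table alone, with *Anxa10* at 1978 and 1292 reads and *Gast*, the gastrin gene, at 1417 and 459 reads. Of 19 further gastric genes 6 were in both tables and all 6 were called higher (4 with TMM), among them *Mucl3*, also in the goblet cell list, and *Ctse*, encoding cathepsin E, at 164 and 152 CPM against 2.23 and 4.62 CPM. Another 6, including *Cldn18* (1648 and 1224 reads), *Psca* (3835 and 1279 reads) and *Muc6* (596 and 1179 reads), were in the crypt table alone, 7 were in neither and none was in the villus table alone. The same genes were high in Ctrl crypts against the single Ctrl villus library, with *Tff2* at 288 and 252 CPM against 0.619 CPM and *Gkn1* at 305 and 417 CPM against 1.31 CPM.

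**Figure D4:**
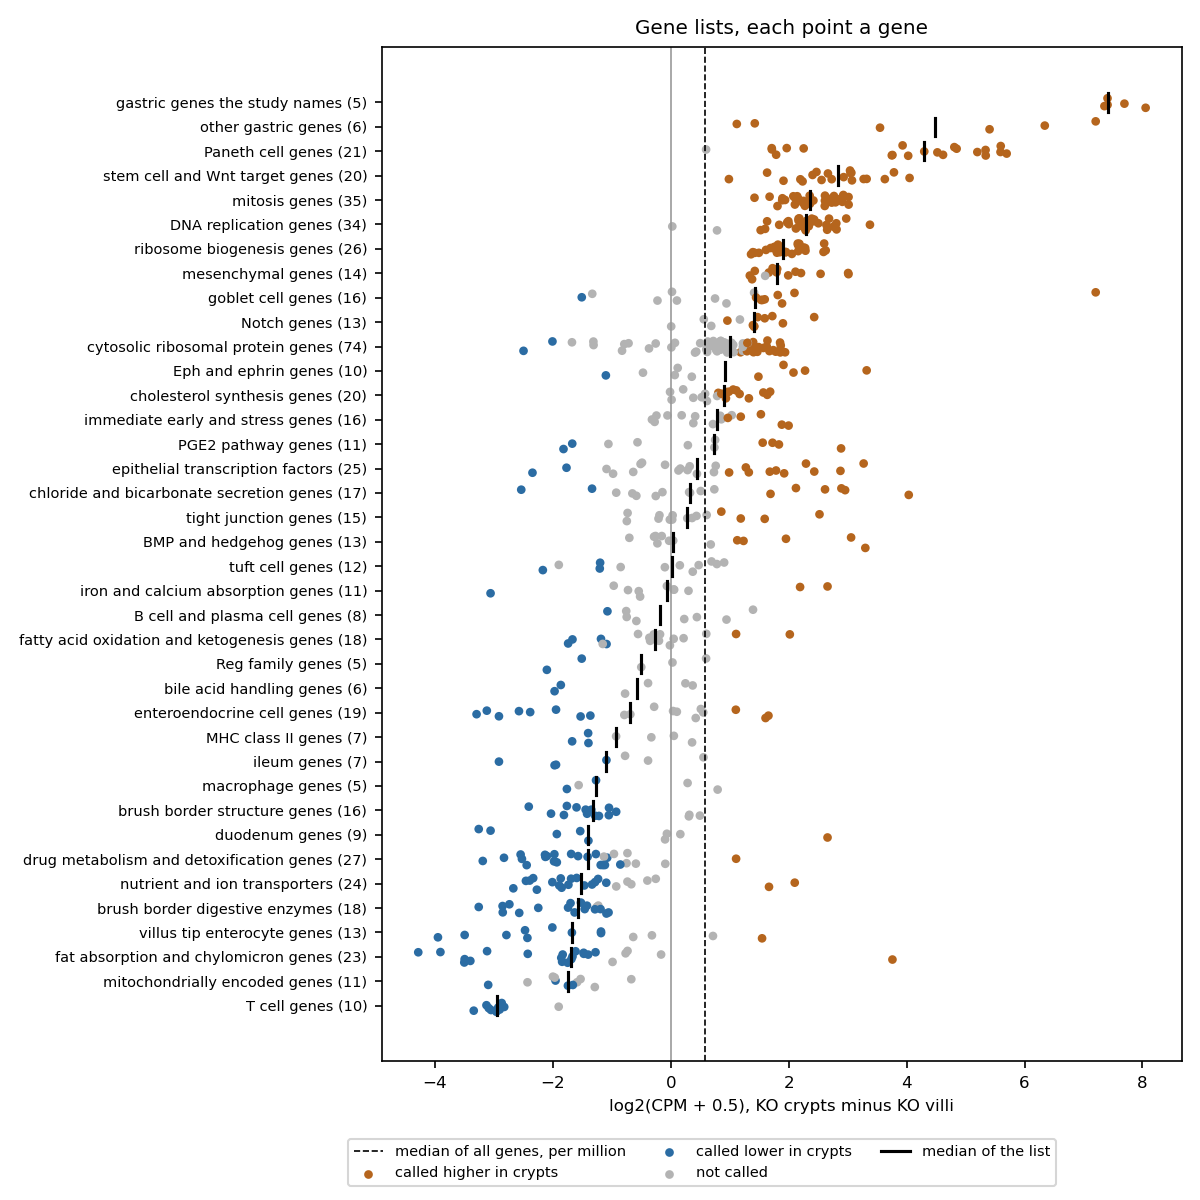
Log2 difference of KO crypts minus KO villi (horizontal) for each gene of the lists with at least 5 genes in both tables (vertical, number of genes in brackets), coloured by call by CPM, with the median of each list and of all genes (0.58, dashed). The medians run from -2.94 for T cell genes to 7.41 for the gastric genes the study names; with TMM the medians of the tuft cell, tight junction, chloride and bicarbonate secretion, BMP and hedgehog, and epithelial transcription factor lists fall below 0.

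Brush border genes were lower in crypts. Of 18 genes in the digestive enzyme list, which includes the transporter subunit gene *Slc3a1*, 16 were called lower and none higher (18 lower with TMM). The list median was -1.58. *Anpep*, encoding aminopeptidase N, stood at 1188 and 1678 CPM in the crypts and 4657 and 3243 CPM in the villi (log2 -1.46). *Ace*, the peptidase that also converts angiotensin, stood at 120 and 194 CPM against 1561 and 782 CPM (log2 -2.85). *Tmprss15*, the enteropeptidase gene that starts the trypsin cascade, stood at 0.820 and 7.49 CPM against 29.1 and 32.1 CPM (log2 -3.26). *Sis*, encoding sucrase-isomaltase, stood at 940 and 1413 CPM against 3990 and 1901 CPM and was not called by CPM (log2 -1.26, adjusted p = 0.062 by limma-trend) but was with TMM (log2 -1.84, adjusted p = 0.025), and also with the length correction, by edgeR and by DESeq2. Both crypt libraries lay below both villus libraries in all 18 genes, against 16.0% of all genes.

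In the structural part of the brush border 13 of 16 genes were called lower on either scale, with a median of -1.32. *Vil1*, encoding the actin bundler villin, stood at 671 and 810 CPM in the crypts and 3091 and 2943 CPM in the villi, which is 4.09-fold higher in villi. *Myo1a*, the myosin that ties actin to the microvillus membrane, stood at 687 and 697 CPM against 1949 and 1596 CPM. *Espn*, encoding another actin bundler, had the largest difference (log2 -2.41).

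The enterocyte factors HNF4A and HNF4G are known to bind the sequence CAAAGTCCA, so it was searched in the same windows. It was in 0.475% of all promoters, in 3 of 22 promoters (13.6%) of the digestive enzyme list, which includes *Slc3a1* (16 of 20 genes matched). Among the fat absorption genes it was in 0 of 21 promoters. The 3 promoters with the motif are those of *Treh* (trehalase), *Alpi* (intestinal alkaline phosphatase) and *Slc3a1* (an amino acid transporter subunit), named for the motif after their values were seen. Their 250 bases before the start follow, with the motif, or TGGACTTTG on the opposite strand, in capitals, from chr9:44672983-44673232 (+ strand), chr1:87101607-87101856 (- strand) and chr17:85028097-85028346 (+ strand).
Treh: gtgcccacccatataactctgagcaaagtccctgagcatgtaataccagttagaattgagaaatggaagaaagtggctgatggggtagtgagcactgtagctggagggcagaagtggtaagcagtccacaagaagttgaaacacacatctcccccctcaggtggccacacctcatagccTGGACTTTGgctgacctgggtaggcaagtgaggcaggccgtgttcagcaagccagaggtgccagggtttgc
Alpi: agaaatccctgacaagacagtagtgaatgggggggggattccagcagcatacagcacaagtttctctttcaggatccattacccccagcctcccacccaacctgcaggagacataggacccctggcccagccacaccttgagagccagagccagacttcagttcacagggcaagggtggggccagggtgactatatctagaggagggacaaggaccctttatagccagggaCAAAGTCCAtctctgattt
Slc3a1: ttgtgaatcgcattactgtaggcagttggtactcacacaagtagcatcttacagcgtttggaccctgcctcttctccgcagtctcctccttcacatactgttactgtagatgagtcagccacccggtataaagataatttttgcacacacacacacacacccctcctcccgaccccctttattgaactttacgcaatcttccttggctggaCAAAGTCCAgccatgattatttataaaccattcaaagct
*Treh* stood at 64.1 and 72.5 CPM in the crypts and 493 and 336 CPM in the villi, *Alpi* at 303 and 688 CPM against 1487 and 1162 CPM, and *Slc3a1* at 34.8 and 62.2 CPM against 129 and 102 CPM. All 3 were called lower in crypts on both scales. *Hnf4a* itself overlapped between the tissues, at 634 and 982 CPM in the crypts and 637 and 659 CPM in the villi, with a log2 difference of 0.28 that became -0.30 with TMM.

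Most fat absorption genes were lower in crypts. Of 23 genes 18 were called lower in crypts (21 with TMM) and 1 higher, with a median of -1.69. *Apoc2*, an apolipoprotein gene that activates lipoprotein lipase, stood at 54.0 and 33.9 CPM in the crypts and 848 and 838 CPM in the villi (19.5-fold higher in villi, log2 -4.28, SE 0.32, adjusted p = 0.00055 by limma-trend). *Apoa1*, the main protein of high-density lipoprotein, stood at 855 and 551 CPM against 6173 and 5749 CPM (log2 -3.12). *Fabp1*, a fatty acid carrier of the enterocyte cytosol, stood at 344 and 248 CPM against 3458 and 3179 CPM (11.3-fold higher in villi). Villus replicates lay close together here, and no crypt library reached them. The exception was *Clps*, colipase, which is also in the Paneth cell list and stood at 276 and 135 CPM in the crypts and 12.7 and 15.05 CPM in the villi (log2 3.76). The 10 largest differences in favour of villi were those of *Cox7a1*, *Apoc2*, *Prap1*, *Leap2*, *Aldh4a1*, *Ada*, *Apoc3*, *Spink1*, *Slc5a12* and *Fabp1*. *Cox7a1*, encoding a subunit isoform of cytochrome c oxidase, stood at 8.20 and 3.27 CPM in the crypts and 136 and 135 CPM in the villi (log2 -4.57). *Leap2*, which encodes a peptide that blocks the ghrelin receptor, stood at 12.2 and 6.48 CPM against 155 and 151 CPM (log2 -4.03).

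Transporters and detoxifying enzymes followed the same direction. Of 24 nutrient and ion transporter genes 17 were called lower in crypts and 2 higher (20 and 2 with TMM), with a median of -1.53. *Slc5a1*, the sodium-glucose transporter SGLT1, stood at 551 and 741 CPM in the crypts and 2984 and 1783 CPM in the villi (log2 -1.85). *Slc6a19*, the neutral amino acid transporter, stood at 97.0 and 116 CPM against 778 and 441 CPM (log2 -2.46). The 2 higher ones were *Slc16a1* and *Slc1a1*, which carry lactate and glutamate. Of 27 drug metabolism genes 20 were called lower and 1 higher (24 and 0 with TMM), with *Cyp2c29* at 3.95 and 7.61 CPM against 62.7 and 47.0 CPM and a list median of -1.41. Iron and calcium genes were split, with the calcium carrier *S100g* lower (log2 -3.06) and the iron reductase *Cybrd1* (2.66) and transferrin receptor *Tfrc* higher, and 8 of 11 not called (6 with TMM). By CPM 33.7% of all genes were called higher and 7.57% lower. Of 6 bile acid genes 2 were called lower, *Fabp6* and *Abcc2* (4 with TMM). Among villus tip genes 9 of 13 were called lower and 1 higher (10 and 0 with TMM), including *Ada*, adenosine deaminase, at 17.9 and 32.2 CPM against 302 and 473 CPM, with *Egfr* the higher one (1.55, not called with TMM).
Markers of 2 intestinal regions were also counted, since nothing in the sources used here says which segment was taken. Of 9 duodenum genes 5 were called lower and 1 higher in crypts, and of 7 ileum genes 4 were called lower, on either scale for the duodenum and 6 with TMM for the ileum.

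*Muc2*, the main goblet cell mucin and the gene the study followed, overlapped between the tissues in the deletion mice. It stood at 402 and 422 CPM in the crypts and 391 and 595 CPM in the villi (log2 -0.23, SE 0.33, adjusted p = 0.60 by limma-trend; log2 -0.80, adjusted p = 0.11 with TMM). DESeq2 on the recovered reads called it lower in crypts (log2 -0.89, adjusted p = 0.041), as did TMM with the length correction (adjusted p = 0.049 by limma-trend), and without KO villus replicate 2 the log2 difference was 0.08. Of 16 goblet cell genes 8 were called higher in crypts (5 with TMM) and 1 lower (2 with TMM), with a median of 1.43. The shares over all genes were 33.7% higher and 7.57% lower by CPM, and 14.5% each way with TMM. The lower calls of this list were thus near the share of all genes. Among the higher ones were the secretory regulators *Atoh1* and *Spdef*, the endoplasmic reticulum factor *Creb3l1* (2.10) and *Mucl3* (7.21), a mucin-like gene with 211 and 237 CPM in the crypts and 1.59 and 0.596 CPM in the villi. *Zg16*, a lectin gene of goblet granules, was lower in crypts, at 769 and 405 CPM against 1267 and 1996 CPM. *Clca1* and *Fcgbp*, which encode mucus proteins, overlapped between tissues, with *Clca1* at 425 and 533 CPM in the crypts and 397 and 554 CPM in the villi.

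Enteroendocrine genes differed by hormone. Of 19 genes 3 were called higher and 8 lower in crypts (1 and 10 with TMM), with a median of -0.69. Among all genes 33.7% were called higher and 7.57% lower by CPM, and 14.5% each way with TMM. No larger share of this list than of all genes was thus called higher. *Sct*, secretin, stood at 34.7 and 16.3 CPM in the crypts and 260 and 218 CPM in the villi (log2 -3.29), and *Gip*, the incretin gene of K cells, at 66.4 and 32.8 CPM against 389 and 432 CPM (log2 -3.12). *Cck*, *Sst*, *Ghrl*, *Nts*, *Pyy* and *Scg2* were the other lower ones, and *Gcg*, *Tac1* and the progenitor factor *Insm1* the higher ones. The pan-endocrine gene *Chga* overlapped, at 126 and 73.2 CPM against 231 and 120 CPM (log2 -0.79, adjusted p = 0.15 by limma-trend; called lower with TMM at log2 -1.37). Of 12 tuft cell genes 3 were called lower (4 with TMM), among them *Sh2d6* and *Ptpn6*, while the defining *Dclk1* overlapped at 8.61 and 21.3 CPM against 6.12 and 15.1 CPM. Of 5 Reg genes *Reg1* and *Reg3a* were called lower. *Reg3b* stood at 2093 and 1109 CPM in the crypts and 2120 and 2195 CPM in the villi, without overlap but not called.

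Of 16 PGE2 pathway genes 11 were in both tables. The deleted genes come first. *Ptgs1* stood at 8.71 and 10.6 CPM in the crypts and 4.21 and 7.15 CPM in the villi (log2 0.75, adjusted p = 0.14 by limma-trend), with 19.9 and 8.63 CPM in Ctrl crypts and 5.37 CPM in the Ctrl villus library. *Ptgs2* and *Gli1* were in neither table, so the deletion in Gli1+ cells could not be read from these libraries. Of the receptors only *Ptger4* was in both tables, at 23.0 and 29.8 CPM in the crypts and 14.97 and 16.0 CPM in the villi, without overlap but not called (log2 0.74, adjusted p = 0.078 by limma-trend). *Ptger3* was in the crypt table alone, with 28 and 57 reads, and *Ptger1* and *Ptger2* were in neither.
Of the 11 genes, 4 were called higher in crypts and 2 lower (3 and 4 with TMM). The shares over all genes were 33.7% and 7.57% by CPM and 14.5% each with TMM, so the higher calls by CPM were near the share of all genes. *Pla2g4a*, the phospholipase that frees arachidonic acid for COX, stood at 33.1 and 44.4 CPM in the crypts and 4.72 and 4.77 CPM in the villi (log2 2.89). *Hpgd*, the dehydrogenase that inactivates PGE2, went the other way, at 137 and 116 CPM against 455 and 439 CPM (log2 -1.82), as did the reductase *Cbr1* (log2 -1.67). The efflux transporter gene *Abcc4* was higher in crypts (1.83).

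Chloride secretion genes, through which PGE2 is known to drive fluid into the lumen, were split. Of 17 genes of chloride and bicarbonate transport 6 were called higher on either scale and 2 lower (4 with TMM). Over all genes 33.7% were called higher and 7.57% lower by CPM, and 14.5% each way with TMM. By CPM the higher share of this list was thus near that of all genes. *Slc12a2*, the basolateral cotransporter NKCC1 that loads the cell with chloride, stood at 866 and 1103 CPM in the crypts and 65.6 and 53.3 CPM in the villi (16.4-fold, log2 4.04). *Cftr*, the apical chloride channel, stood at 193 and 312 CPM against 87.9 and 65.0 CPM (3.23-fold, log2 1.69, SE 0.33, adjusted p = 0.0064 by limma-trend). *Ano1*, a calcium-activated chloride channel gene, stood at 11.3 and 19.8 CPM against 2.36 and 0.894 CPM (log2 2.96). The potassium channel genes *Kcnq1*, *Kcne3* and *Kcnn4*, whose currents support secretion, made up the rest of the 6. *Guca2b*, encoding the peptide uroguanylin, was lower in crypts, at 266 and 126 CPM against 1288 and 880 CPM (log2 -2.54).

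Signalling genes were called in part, where 33.7% of all genes were called higher and 7.57% lower by CPM, and 14.5% each way with TMM. By CPM the higher calls of the BMP and hedgehog, transcription factor and tight junction lists below were near the share of all genes. Of 13 Notch genes 9 were called higher in crypts (3 with TMM), with the target *Hes1* at 137 and 79.0 CPM against 18.9 and 18.8 CPM (log2 2.43). Of 10 Eph and ephrin genes 5 were called higher and 1 lower (4 and 2 with TMM), with the crypt receptor *Ephb3* at 39.5 and 48.5 CPM against 4.91 and 3.13 CPM (log2 3.32) and *Epha1* the lower one. Of 13 BMP and hedgehog genes 5 were called higher (3 with TMM, and 1 lower), led by *Bmp7* (3.30) and the hedgehog transducer *Smo* (3.06), around a list median of 0.04 that was -0.53 with TMM. Of 25 epithelial transcription factors 10 were called higher and 2, among them *Maf*, lower (7 and 5 with TMM). Of 15 tight junction genes 4 were called higher (2 with TMM, and 2 lower), with the pore-forming claudin *Cldn2* at 198 and 253 CPM against 37.9 and 39.2 CPM (log2 2.52), while *Cldn7* and *Cldn15* overlapped.

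Genes for making ribosomes were higher in crypts, all 26 of 26 by CPM and 19 with TMM, with a median of 1.91. *Ncl*, nucleolin, stood at 798 and 774 CPM against 144 and 117 CPM (log2 2.59). The ribosomal proteins themselves depended on the scale, with 27 of 74 called higher and 2 lower by CPM and 4 each with TMM. Their higher calls by CPM were near the 33.7% of all genes, and with TMM below the 14.5% of all genes. *Rplp0* stood at 3116 and 1752 CPM in the crypts and 918 and 857 CPM in the villi (log2 1.397, not called with TMM), whereas *Rps29*, with a very short transcript, stood at 110 and 17.2 CPM against 260 and 240 CPM. Of 20 cholesterol synthesis genes 12 were called higher and none lower (3 and none with TMM). With TMM their higher calls were near the 14.5% of all genes. Of 18 genes of fatty acid oxidation and ketogenesis 2 were called higher, among them *Cpt1a*, which encodes the enzyme that admits long-chain fatty acids to mitochondria, and 4 lower (1 and 7 with TMM). Among all genes 33.7% were called higher and 7.57% lower by CPM, and 14.5% each way with TMM.

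Cells other than epithelium moved with the tissue as well. Of 14 mesenchymal genes 13 were called higher in crypts (7 with TMM), and their summed level was 631 and 934 CPM in the crypts and 213 and 179 CPM in the villi. *Dcn*, decorin, stood at 178 and 233 CPM against 20.1 and 30.8 CPM (8.04-fold, log2 3.01). T cell genes went the other way, with 9 of 10 called lower in crypts (10 with TMM), a median of -2.94, and sums of 70.8 and 196 CPM against 840 and 1006 CPM. *Gzmb*, granzyme B, stood at 5.59 and 23.9 CPM in the crypts and 113 and 134 CPM in the villi (10.1-fold higher in villi), and *Cd3e*, a chain of the T cell receptor complex, at 1.13 and 3.69 CPM against 17.7 and 19.5 CPM. All 3 erythrocyte genes were called lower in crypts, with sums of 63.9 and 98.6 CPM against 313 and 693 CPM. Of 5 macrophage genes 2 were called lower (3 with TMM), of 8 B and plasma cell genes 1 (3 with TMM), and of 7 MHC class II genes 3 (4 with TMM). The share called lower over all genes was 7.57% by CPM and 14.5% with TMM. The single endothelial gene in both tables, *Lyve1*, stood at 3.79 and 4.22 CPM in the crypts and 2.99 and 3.65 CPM in the villi. The groups did not overlap in *Lyve1*, but it was not called. *Pecam1* was in the villus table alone with 28 and 53 reads. Of 3 pancreas genes 2 were called higher, none with TMM. The part of these other cells in the epithelial differences above was not tested.

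Of 11 mitochondrially encoded genes 4 were called lower in crypts on either scale, with a median of -1.75. *mt-Co1*, a subunit of cytochrome c oxidase, stood at 10470 and 54191 CPM in the crypts and 106635 and 154735 CPM in the villi, without overlap but not called (adjusted p = 0.078 by limma-trend). Of 16 immediate early and stress genes, which respond to tissue handling, 5 were called higher in crypts (1 with TMM), with *Egr1* at 214 and 148 CPM against 73.1 and 26.6 CPM and *Fos* overlapping at 423 and 212 CPM against 258 and 128 CPM. Among all genes 33.7% were called higher by CPM and 14.5% with TMM, so no larger share of this list was called.

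Whether these tissue differences were particular to the deletion mice was tested as the interaction of tissue with genotype over the 7 distinct libraries, since the 2 Ctrl villus columns hold identical values for all 12701 genes and were counted as 1 library. That lone library was assumed to vary like the other groups. No gene was called among 11227 (0.0%) by limma-trend. The smallest adjusted p was 0.0598, 3336 genes had an unadjusted p under 0.05, and edgeR's quasi-likelihood test on the recovered reads also called 0 genes, with 2871 at an unadjusted p under 0.05. The median interaction of all genes was -0.49 on the log2 scale by CPM and -0.03 with TMM. The count of 0 did not hold under every setting, since 9 higher and 1238 lower genes were called after correction for transcript length, 0 and 375 with a pseudocount of 0.1, 69 and 1968 without KO crypt replicate 1 and 1335 and 4126 without KO crypt replicate 2. In simulated counts with this design limma-trend recovered 6% of genes changed by a log2 of 1 and 94% of those changed by 3. Those counts held no trend with transcript length and no shift in scale between groups, so the rates need not hold here.

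For the genes the study followed, and for the mitosis gene *Mki67*, which it does not name, the values per genotype stand side by side. *Muc2* was at 1081 and 833 CPM in Ctrl crypts and 339 CPM in the Ctrl villus library, against 402 and 422 CPM in the deletion crypts and 391 and 595 CPM in the deletion villi. The interaction was -1.71, with an adjusted p of 0.069 by limma-trend. *Cftr* was at 324 and 334 CPM in Ctrl crypts and 20.2 CPM in the Ctrl villus library, an interaction of -2.30 with an adjusted p of 0.060 by limma-trend. *Mki67* was at 374 and 360 CPM in Ctrl crypts and 8.46 CPM in the Ctrl villus library, with an interaction of -2.94 and the same adjusted p.
*Olfm4* (interaction -1.20, adjusted p = 0.12), *Lyz1* (-0.73, adjusted p = 0.42) and *Ptger4* (-1.20, adjusted p = 0.094) were not called either by limma-trend. The median tissue difference of the mitosis genes was 2.36 in the deletion mice and 3.21 in Ctrl, that of the Paneth cell genes 4.30 and 4.40, that of the brush border enzymes -1.58 and -0.91, and that of the T cell genes -2.94 and -2.92. The median interactions of these lists by CPM were -0.83, -0.12, -0.66 and -0.23, in that order, against -0.49 for all genes. With TMM the median of all genes was -0.03, so the gaps between genotypes depend on the scaling. These medians are given without a test.

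**Figure D5:**
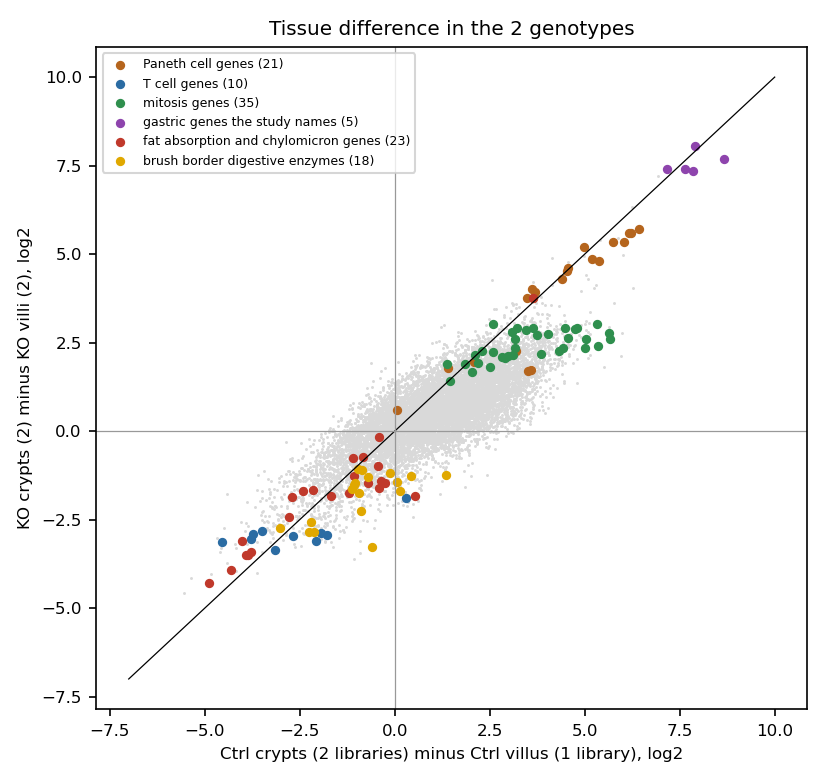
Log2 crypt minus villus difference in Gli1-PtgscKO mice (vertical, 2 against 2 libraries) against the same difference in Ctrl mice (horizontal, 2 libraries against 1) for all genes in grey and 6 lists in colour, with the line of equal difference. By CPM the median gene lies below that line, at an interaction of -0.49, which was -0.03 with TMM. Paneth cell genes lie near the line (medians 4.30 and 4.40) and many mitosis genes to its right (2.36 and 3.21), while no gene passed the test of the interaction; Muc5ac had no read in the Ctrl villus library, so its horizontal value is set by the pseudocount.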

How the data were processed

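RNA of isolated small intestinal crypts and villi was sequenced by the authors with paired-end reads, which they aligned to mm10 with STAR, counted per gene and compared with DESeq2. Versions, annotation, counting program and strand setting were not given in the sources used here, so antisense and overlapping genes are uncertain. The deposited tables hold, for every library, a signal (counts over the DESeq2 size factor) and the authors' own comparison of genotypes (log2 fold change, standard error, test statistic, p-value and adjusted p), which was not used.

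The spacing of the values gave back whole reads for 100% of them, within a tolerance of 0.01 reads. The tables were joined on gene ID and each library was scaled to 1e+06 (CPM) over the shared genes. Genes listed in a single table took 0.186% to 0.389% of the reads of the deletion libraries. Crypts and villi were compared in R 4.3.3 with limma-trend of limma 3.58.1 on log2(CPM + 0.5), after a minimum mean of 1 CPM that every gene passed. The interaction was fitted over 7 libraries. Design and tests, laid out for normalized values, used no block. On the recovered reads edgeR 4.0.16 called 1608 higher and 1516 lower genes and DESeq2 1.42.0 called 1767 and 1888. Other alternatives were TMM scaling, filters, pseudocounts of 0.1 and 2, a lowess correction for transcript length (span 0.3, GENCODE M21), the study's threshold (unadjusted p under 0.01, absolute log2 over 1) and leaving out each library. In simulated counts for crypts against villi, limma-trend recovered 22% of genes changed by a log2 of 1 and all of those changed by 3, with 6.15% of calls false. The simulation gave all genes a common dispersion of 0.0596 and changed 200 of 11227 genes, equally up and down. It held neither the shift in scale between the tissues nor the length trend between the crypt replicates. Its rates therefore need not hold for the real libraries.

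The members and the 41 gene lists (723 genes, 619 in both tables) were chosen with earlier results of these data known, and older symbols of listed genes were merged with the current ones after the values were seen. Named genes are the 2 markers, the genes the study names, in each list the 2 genes with the highest mean CPM and the 2 with the largest difference, and the 10 largest differences each way among called genes without overlap. Other members are named to fill out a count or because they are defining markers, and were chosen after their values were seen. CPM is not per length, so levels are compared between libraries, not between genes. Figures were drawn with matplotlib 3.10.9. Some list members are counted but not reported by name here.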

Additional observations from a re-analysis of the deposited data

How the results depend on the processing

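Crypt against villus calls moved with scaling and with single libraries. Against 3780 higher and 850 lower genes, TMM gave 1626 and 1628, edgeR 1608 and 1516, DESeq2 1767 and 1888, and, chosen after seeing the data, scaling without mitochondrially encoded genes 2358 and 1045 and TMM with length correction 2527 and 2628. Leaving out a library gave 1180 to 5887 higher and 371 to 1802 lower. Without KO crypt replicate 1 the counts were 5887 and 1640, without KO crypt replicate 2 5490 and 1802, without KO villus replicate 1 1612 and 383, and without KO villus replicate 2 1180 and 371. The lone library of a tissue is then assumed to vary like the other tissue. The length correction gave 5019 and 1236, the study's threshold 3015 and 667, and the filter, the pseudocounts and the replicate block stayed within 1.5 times. With the replicate block 3764 and 942 genes were called. Deviations of same-numbered libraries correlated at 0.0034. Since the difference between the crypt replicates followed transcript length, this value cannot show whether same-numbered libraries came from the same mouse. Interaction calls, 0 by default, were 375 lower with a pseudocount of 0.1, 9 higher and 1238 lower with length correction, and 0 to 1335 higher and 0 to 4126 lower on leaving out a library (69 and 1968 without KO crypt replicate 1, 1335 and 4126 without KO crypt replicate 2). The causes were not tested.

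Of 147 named genes, 26 lost their call without KO villus replicate 1 and 28 without KO villus replicate 2, and a sign changed only where no call was made by default. The log2 differences that changed sign were, with DESeq2, *Fcgbp* -0.51, *Reg3g* -0.55, *Efnb1* -0.26, *Hnf4a* -0.31, *Cldn7* -0.51, *Cldn15* -0.57, *Cd74* -0.40, *Lyve1* -0.35, *Itgam* -0.28. With edgeR, *Fcgbp* -0.47, *Reg3g* -0.51, *Efnb1* -0.22, *Hnf4a* -0.27, *Cldn7* -0.47, *Cldn15* -0.54, *Cd74* -0.36, *Lyve1* -0.31, *Itgam* -0.25. With TMM, *Fcgbp* -0.48, *Reg3g* -0.55, *Efnb1* -0.22, *Hnf4a* -0.30, *Cldn7* -0.56, *Cldn15* -0.55, *Cd74* -0.53, *Lyve1* -0.27, *Itgam* -0.28. With length correction, *Fcgbp* -0.0013, *Reg3b* 0.079, *Id3* 0.10, *Igkc* 0.023. With mean length, *Fcgbp* -0.019, *Reg3b* 0.052, *Id3* 0.12. Without mitochondrially encoded genes in the scaling, *Fcgbp* -0.17, *Reg3g* -0.24, *Cldn7* -0.25, *Cldn15* -0.24, *Cd74* -0.22. With TMM and length correction, *Fcgbp* -0.58, *Reg3g* -0.50, *Efnb1* -0.28, *Hnf4a* -0.42, *Cldn7* -0.32, *Cldn15* -0.46, *Cd74* -0.32, *Lyve1* -0.27, *Itgam* -0.40. Leaving out a library, ranges were *Reg3g* -0.31 to 0.37, *Cldn7* -0.42 to 0.46, *Cldn15* -0.24 to 0.31, *Cd74* -0.66 to 0.76, *Fcgbp* -0.17 to 0.38, *Id3* -0.81 to 0.50, *Hnf4a* -0.032 to 0.60, *Itgam* -0.10 to 0.67, *Chgb* -0.77 to 0.21, *Muc2* -0.53 to 0.076. Interactions that changed sign were, with the replicate block, *Tff2* -0.11. With TMM, *Gkn1* 0.13. With a pseudocount of 0.1, *Tff2* -0.30. With a pseudocount of 2, *Gkn1* 0.32, *Gkn2* 0.069. With length correction, *Tff2* -1.29 (adjusted p = 0.029 by limma-trend), *Pgc* -0.59, *Chga* -0.29. With TMM and length correction, *Tff2* -1.05, *Pgc* -0.24. Leaving out a library, ranges were *Tff2* -0.46 to 0.74, *Chga* -0.20 to 0.75, *Gkn1* -0.97 to 0.53, *Gkn2* -1.16 to 0.18, *Pgc* -0.28 to 0.77, *Ptgs1* -1.05 to 0.11.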

Other observations

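Some genes were listed for villi alone and so are not in the joined comparison. They included *Slc51b*, a subunit of the bile acid exporter of the enterocyte, at 609 and 512 reads in the KO villus libraries, *Cideb*, a lipid droplet protein gene, at 327 and 224 reads, and the interferon-induced *Ido1* at 287 and 288 reads. Lymphocyte and myeloid genes were among them as well, with *Ctsw* at 428 and 440 reads, *Cd3d* at 193 and 252 reads, *Trdc*, the constant region of a gamma-delta T cell receptor chain, at 188 and 172 reads, and *Tyrobp* at 271 and 315 reads. *Fgf15*, the ileal hormone gene that bile acids induce, had 40 and 22 reads. In all, 1474 genes were listed for villi alone and 327 for crypts alone, with the highest crypt-only levels in *Psca*, *Anxa10*, *Cldn18* and *Gast*. *Neurog3*, which starts the enteroendocrine lineage, was listed for crypts alone at 93 and 117 reads, and *Nkd1*, a Wnt target, at 122 and 146 reads. The level of a gene in the table that does not list it is not known, so no difference is given.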
